A study of Drosophila melanogaster with 2 samples.

Results

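The 7 genes described here encode cytosolic translation elongation factors of Drosophila melanogaster: eEF1alpha1, eEF1alpha2, eEF1beta, eEF1delta, eEF1gamma, eEF2 and eEF5. They are 7 of 13945 protein-coding genes on the 6 chromosome arms. They were chosen by name and function, with the signal and rank of their peaks in these data already known, so peak signal and rank are given as descriptions, with no test. The data are chromatin immunoprecipitation sequencing (ChIP-seq) peak lists for Bigmax, from 1 group of 2 libraries that the labels call biological replicates 3 and 4. Both come from whole embryos of mixed sex, 0 to 24 h old, of a transgenic line that makes Bigmax with green fluorescent protein (GFP) at its C terminus. The promoter that drives the fusion is not given in the sources used here, and a whole-embryo sample cannot say in which cells a site was bound. The antibody label names each library a Bigmax immunoprecipitation, whereas its free text calls it an input control. Their file notes list peak calls made against a separate control, and the lists were read as such.

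Elongation factors carry out the repeated steps by which a ribosome adds amino acids. eEF1alpha, loaded with GTP, brings each aminoacyl-tRNA to the ribosome, and the eEF1beta, eEF1delta and eEF1gamma subunits form the complex that reloads it with GTP. eEF2 moves the ribosome along the mRNA by a codon at a time, and eEF5, known in other animals as eIF5A, helps at sequences where the ribosome stalls. Bigmax, the fly counterpart of mammalian Mlx, belongs to the family of basic helix-loop-helix leucine zipper factors and, with Mondo, binds E-boxes such as CACGTG.

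A promoter summit of a gene is a peak summit at most 500 bp from an annotated start of one of its protein-coding transcripts. Signal is the peak caller's own value per peak, and rank 1 is the highest signal of a list. Among the 7 genes, 5 had a promoter summit in the list that passed the authors' irreproducible discovery rate threshold (IDR list, 1949 peaks): eEF1alpha1, eEF1beta, eEF1gamma, eEF2 and eEF5. Of all protein-coding genes, 11.2% had one. The remaining 2 genes, eEF1alpha2 and eEF1delta, had promoter summits only below that threshold. In the pooled relaxed list of 30000 peaks, 7 of 7 had a promoter summit, where 56.7% of all genes did, so presence there says little about the members. The lowest signal in the IDR list was 111; the members nearest to it were eEF5 above, with 219 at its strongest promoter summit, and eEF1alpha2 below, with 53.0.

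The DNA under the summits of 4 genes is shown to set summits of the IDR list beside the weak summits of eEF1alpha2 and eEF1delta. Each sequence below runs 5′ to 3′ on the strand of the gene, from 50 bp before the summit to 50 bp after it, in the pooled list on dm6. Capitals mark AGGTTA in either orientation (TAACCT on the other strand), a 6-mer taken from an earlier screen of these data, and TATCGATA, the DNA replication-related element (DRE).
eEF2, strongest summit, chr2L:21681670-21681770, minus strand: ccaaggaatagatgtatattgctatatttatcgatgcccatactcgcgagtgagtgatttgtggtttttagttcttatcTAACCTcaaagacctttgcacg
eEF2, other IDR summit, chr2L:21681871-21681971, minus strand: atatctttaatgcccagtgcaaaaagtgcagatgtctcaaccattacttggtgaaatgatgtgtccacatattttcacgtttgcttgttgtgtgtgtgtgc
eEF1gamma, chr3R:29220129-29220229, plus strand: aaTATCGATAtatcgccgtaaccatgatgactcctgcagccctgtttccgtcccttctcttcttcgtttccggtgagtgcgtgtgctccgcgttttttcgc
eEF1alpha2, chr3R:31738569-31738669, plus strand: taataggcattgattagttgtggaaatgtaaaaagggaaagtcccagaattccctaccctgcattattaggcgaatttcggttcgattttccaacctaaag
eEF1delta, chr2L:10232318-10232418, plus strand: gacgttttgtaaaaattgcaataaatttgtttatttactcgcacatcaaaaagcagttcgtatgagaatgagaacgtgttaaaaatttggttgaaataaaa
Among these windows AGGTTA was found at the strongest eEF2 summit, and TATCGATA at eEF1gamma. The windows of eEF1alpha2, eEF1delta and the other eEF2 summit held neither. The strongest summits of eEF1beta and eEF5, in the IDR list but not printed, also had neither within 50 bp. Of all IDR promoter peaks, 15.4% had AGGTTA and 5.04% had TATCGATA within that distance. Of pooled promoter peaks outside the IDR list, as those of eEF1alpha2 and eEF1delta are, the shares were 2.91% and 3.07%.

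**Figure D1:**
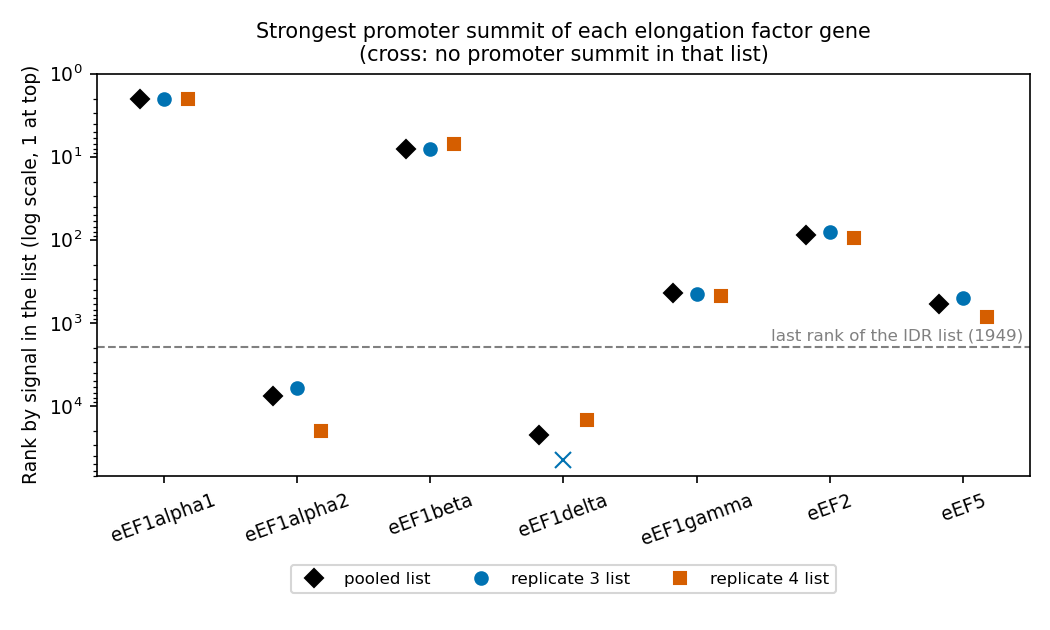
Rank by signal of the strongest promoter summit of each gene (vertical axis, log scale, rank 1 at the top) in the pooled, replicate 3 and replicate 4 lists; the dashed line is rank 1949, where the IDR list ends. eEF1alpha1, eEF1beta, eEF1gamma, eEF2 and eEF5 lie above the line in every list, eEF1alpha2 and eEF1delta below it, and the cross marks the absence of a promoter summit for eEF1delta in replicate 3.

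Of the genes for the carrier of aminoacyl-tRNA, eEF1alpha1 had far more signal than eEF1alpha2. eEF1alpha1 (FBgn0284245, 2R 11891135 to 11895762, plus strand, dm6) had the strongest promoter summit of all 1557 genes with one in the IDR list. Its signal was 3685 in the pooled list, 2088 in replicate 3 and 1666 in replicate 4, and its rank among all peaks was 2 in each of the 3 lists. The peak spanned 2R 11892726 to 11893815, a width of 1090 bp, against a median width of 400 bp in the IDR list. The summit lay 2177 bp into the gene, in the first intron of the transcripts RA, RC and RE, and 230 bp before the start of the transcript RD. Replicate 3 placed it 10 bp downstream of the pooled position and replicate 4 placed it 5 bp upstream.

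The 4 annotated starts of eEF1alpha1 differed in the summits beside them. The RA start had a further IDR summit 87 bp downstream, with a pooled signal of 636 and rank 145. In the replicates this summit had rank 145 in replicate 3 and rank 164 in replicate 4. The outermost start, RE, had a summit 181 bp upstream with a pooled signal of 83.4 and rank 3440, outside the IDR list. That summit was also the only one within 500 bp of the RC start, 442 bp upstream of it. The intron summit before RD and the RA summit were thus the strong ones, and the outer starts had weak signal. eEF1alpha1 and eEF2 were the 2 members with at least 2 IDR promoter summits, as were 1.05% of all genes.

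eEF1alpha2 (FBgn0000557, 3R 31738468 to 31743306, plus strand) encodes a second eEF1alpha. In flies, eEF1alpha1 is known as the form used throughout development and eEF1alpha2 as one used more in pupae and adults. The encoded proteins were identical at 92.2% of 462 aligned residues, and their coding sequences at 82.3% of 1386 aligned bases. At its promoter the signal was 53.0 in the pooled list (rank 7659), 36.2 in replicate 3 (rank 6151) and 16.1 in replicate 4 (rank 20290). The pooled and replicate 3 summits lay in the first intron, 151 and 137 bp from the outer start, while the strongest in replicate 4 lay 462 bp from it. A weaker replicate 4 summit at 159 bp had rank 28170. The inner start, of RB and RC, had no pooled summit within 500 bp, but each replicate list had a weak summit there. It lay 427 bp from that start at rank 25201 in replicate 3, and 132 bp from it at rank 27731 in replicate 4.

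The ratio of eEF1alpha1 to eEF1alpha2 was 69.6 in the pooled list, 57.7 in replicate 3 and 104 in replicate 4. These ratios take the strongest summit over all starts. With the outermost start of each gene alone, the pooled ratio was 1.57, since both strong summits of eEF1alpha1 lie at its inner starts. Despite the similar coding sequences, 0 of 4593 runs of 36 bases in eEF1alpha1 occurred in eEF1alpha2, and all 366 such runs within 200 bp of each gene's strongest summit occurred once in the genome, as they did for the other 5 members. The read length is not given in the sources used here. With 2 replicates no test of the ratio was made.

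**Figure D2:**
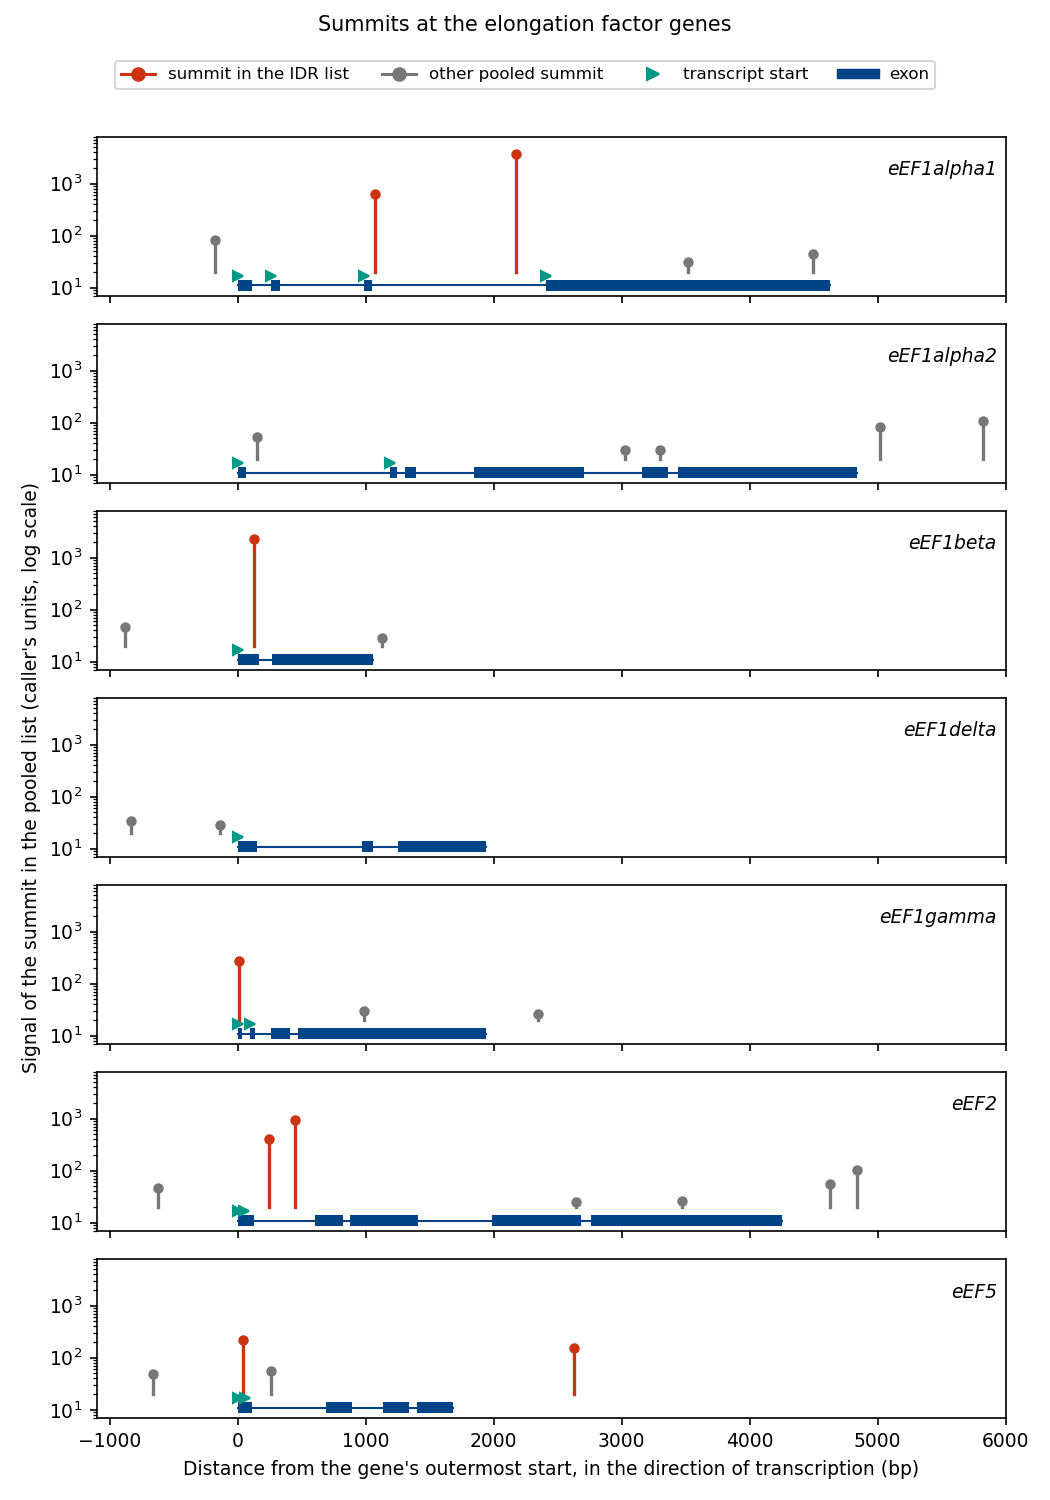
Signal of each pooled summit (vertical axis, log scale, caller's units) against distance from the outermost start of the gene in the direction of transcription (horizontal axis, bp), with exons as blocks and transcript starts as arrowheads. Summits of the IDR list, in red, stand 1074 and 2177 bp into eEF1alpha1 and near the starts of eEF1beta, eEF1gamma, eEF2 and eEF5, with none in the panels of eEF1alpha2 and eEF1delta; the red summit to the right of eEF5 lies outside that gene.

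Among the exchange factor subunits, eEF1beta stood far above its relative eEF1delta, with eEF1gamma between them. eEF1beta (FBgn0028737, 2R 16868222 to 16869280, plus strand) catalyses nucleotide exchange on eEF1alpha. Its signal was 2320 in the pooled list (rank 8), 1373 in replicate 3 (rank 8) and 966 in replicate 4 (rank 7). The summit fell in the first coding exon, 129 bp from the only annotated start, and the replicate summits lay 16 and 1 bp further downstream. Each replicate list also gave a shoulder inside the same interval, at 344 bp with rank 510 in replicate 3 and at 330 bp with rank 747 in replicate 4. The pooled list reported the interval, 750 bp wide, with a single summit.

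eEF1delta (FBgn0032198, 2L 10232507 to 10234450, plus strand) encodes a second exchange subunit, identical to eEF1beta at 56.6% of 212 aligned residues. It had the lowest promoter signal of the 7 genes in the pooled list, 28.8 at rank 22323, where the lowest signal of the whole list was 24.0. Replicate 3 had no promoter summit for it, where 54.7% of all genes had one, and replicate 4 had summits of 19.3 at rank 14764 and 16.9 at rank 18575. Another replicate 4 summit fell just outside the window, 504 bp upstream, with rank 20011. The ratio of eEF1beta to eEF1delta was 80.7 in the pooled list and 50.02 in replicate 4. It could not be formed in replicate 3. As relaxed lists stop at 30000 peaks, a missing summit sets no value for the signal there.

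eEF1gamma (FBgn0029176, 3R 29220172 to 29222109, plus strand) encodes the structural subunit that binds eEF1beta. Its signal was 268 in the pooled list (rank 441), 152 in replicate 3 (rank 445) and 120.1 in replicate 4 (rank 470). The summit was on the start itself, 7 bp downstream in the pooled list and replicate 3, and 2 bp upstream in replicate 4. Its interval of 214 bp was narrower than 400 bp, as were 544 of the 1949 IDR intervals. Position and rank were thus close between the replicates, at a signal far under that of eEF1beta.

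eEF2 (FBgn0000559, 2L 21677913 to 21682164, minus strand), the translocase, had a pooled signal of 944 at rank 89. The replicate signals were 598 at rank 80 in replicate 3 and 387 at rank 96 in replicate 4. This summit lay in the first intron, 396 bp from the start of RA and RD and 444 bp from that of RC. The same 854 bp interval held the other summit printed above, 195 bp from the RA start and also intronic, with a pooled signal of 402 and rank 270. That one had rank 260 in replicate 3 and rank 237 in replicate 4. Each replicate list thus also held 2 summits, at 397 and 196 bp in replicate 3 and at 412 and 206 bp in replicate 4.

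eEF5 (FBgn0285952, 2R 24057798 to 24059483, plus strand) had the weakest summit among the 5 genes in the IDR list. The signal was 219 in the pooled list (rank 593), 138 in replicate 3 (rank 509) and 84.4 in replicate 4 (rank 849). The summit lay in the 5' UTR of RB, 38 bp from its start, and 17 bp before the start of RA. Its pooled interval was 148 bp wide, and neither replicate interval, 404 and 424 bp wide, overlapped it by 50% of both, although the summits were 6 and 4 bp away. A weaker summit in the first intron, 256 bp from the outer start, had a pooled signal of 54.5 and rank 7323, with ranks of 4107 in replicate 3 and 10575 in replicate 4.

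**Figure D3:**
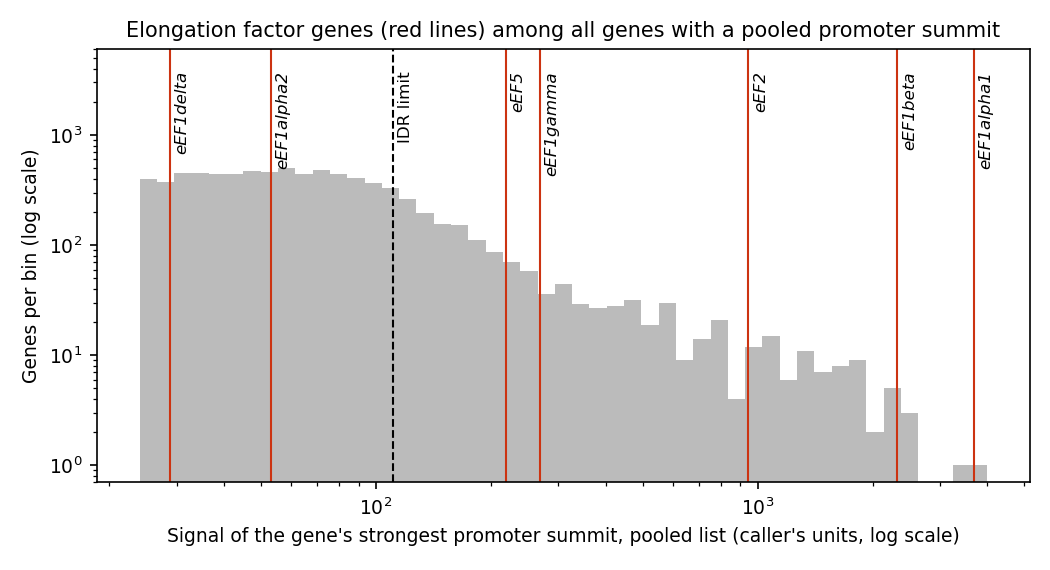
Number of genes (vertical axis, log scale) by the pooled signal of their strongest promoter summit (horizontal axis, log scale, caller's units), for the 7907 genes with one; red lines mark the 7 elongation factor genes and the dashed line the lowest IDR signal, 111. The red lines run from eEF1delta at 28.8, near the left end, to eEF1alpha1 at 3685, the right end.

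Set among all genes, the members covered nearly the whole range of promoter signal. Of the 7907 genes with a pooled promoter summit, eEF1alpha1 stood in place 1, eEF1beta in place 7, eEF2 in place 79, eEF1gamma in place 369, eEF5 in place 486, eEF1alpha2 in place 4611 and eEF1delta in place 7234. The median of the 7 members was 268, against 61.2 over the 7907 genes, whose 99th percentile was 929. eEF1alpha1, eEF1beta and eEF2 lay above that percentile, eEF2 narrowly at 944. In replicate 4, eEF2 at 387 lay below the 99th percentile of 422. The order of the first 5 genes was the same in both replicates. The closest in pooled signal among them were eEF1gamma and eEF5, with ranks of 445 and 509 in replicate 3 and of 470 and 849 in replicate 4. The order of the last pair was not: eEF1alpha2 alone had a promoter summit in replicate 3, at rank 6151, while in replicate 4 eEF1delta, at rank 14764, stood above eEF1alpha2, at rank 20290.

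The replicate lists gave the same division of the genes. Among the 1949 strongest peaks of replicate 3, 5 of 7 members had a promoter summit, against 11.0% of all genes. Among those of replicate 4 it was again 5 of 7, against 11.1%. The 5 genes in both were those in the IDR list. In the full relaxed lists the counts were 6 of 7 in replicate 3 and 7 of 7 in replicate 4, where 55.1% of all genes had a summit. All 7 IDR promoter summits of the members had a partner summit within 250 bp in both replicate lists, as did 1287 of 1289 IDR promoter peaks in replicate 3 and 1286 in replicate 4. The member summits moved by 0 to 16 bp in replicate 3 and by 1 to 42 bp in replicate 4. Over all IDR promoter peaks with a partner, the median was 7 bp in replicate 3 and 15 bp in replicate 4. The IDR list holds the pooled peaks of highest signal, and the pooled reads are those of both replicates, so these counts are not independent of the choice.

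Inside the gene bodies, more than 500 bp from any start of the gene, the IDR list had a summit in 0 of the 7 genes. It had one in 3.31% of all genes, a share too low to set 7 genes apart. The pooled list had one in 4 of the 7 genes and in 37.0% of all genes. It held 7 such summits in the members: 2 each in eEF1alpha1, eEF1alpha2 and eEF2, 1 in eEF1gamma and 0 in eEF1beta, eEF1delta and eEF5. Their signals ran from 24.9 to 44.0 and their ranks from 28397 to 10494. By position, 5 were in coding exons, 1 in an intron of eEF1alpha2 and 1 in the 3' UTR of eEF1alpha1. A partner in both replicates was found for 1 of these 7, the 3' UTR summit, and for 3 of the 4 member promoter summits outside the IDR list. Of all pooled summits outside the IDR list, 47.0% had one, a share not matched for rank. The 3 promoter summits with partners had ranks of 3440, 7323 and 7659, stronger than all 7 gene-body summits, so the 2 counts differ in signal as well as position. The gene-body shares are not adjusted for gene length, which among the members ran from 1059 bp at eEF1beta to 4839 bp at eEF1alpha2.

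Copies of AGGTTA lay close to the strongest summits of several members. This 6-mer is enriched at strong summits and came from an earlier screen of these same data. Its counts at the members are therefore descriptions only. At the eEF1alpha1 intron summit there were 2, 16.5 bp upstream in antisense orientation and 23.5 bp downstream in sense orientation, measured from motif centre to summit. A window of 50 bp on each side held at least 2 copies in 9 of 1289 IDR promoter peaks, 0.698%. That share is over all ranks and was not taken for the strongest peaks alone. At eEF2 the single copy was antisense, 31.5 bp downstream of the summit. These were the 2 of 7 members with the 6-mer within 50 bp of the strongest promoter summit, where 15.4% of IDR promoter peaks had it. Among the 72 IDR promoter peaks ranked 1 to 100, a group that holds eEF1alpha1, eEF1beta and eEF2, 55.6% had it.

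The nearest copies at eEF1beta and eEF5 were further out, 66.5 and 71.5 bp downstream, both in sense orientation. Within 100 bp the count was thus 4 of 7 members, against 22.5% of IDR promoter peaks and 5.31% of pooled promoter peaks outside the IDR list. As the 6-mer came from a screen of these data, a higher count at strong members is not independent of that screen. For IDR promoter peaks ranked 1 to 100, which hold eEF1alpha1, eEF1beta and eEF2, the share was 76.4%. The weaker eEF5 summit had its own copy 25.5 bp upstream. At eEF1gamma, eEF1alpha2 and eEF1delta no copy was found within 200 bp of the pooled promoter summit. In that window 30.3% of IDR promoter peaks had one, as did 9.69% of pooled promoter peaks outside the IDR list. The eEF1alpha2 and eEF1delta summits are outside that list. Members with a strong summit differed in this respect, since eEF1gamma was in the IDR list without the 6-mer.

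**Figure D4:**
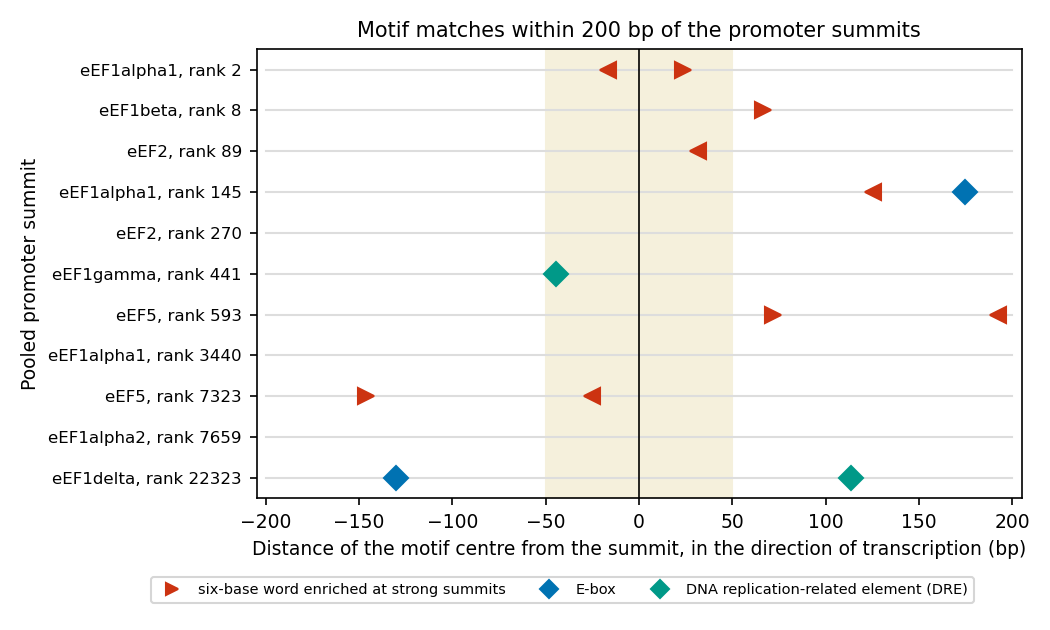
Position of motif matches within 200 bp of each pooled promoter summit of the members (horizontal axis, bp from the summit in the direction of transcription), with summits in order of rank from top to bottom. Triangles are AGGTTA, pointing right in sense and left in antisense orientation, diamonds are CACGTG (blue) and the DRE (green), which read the same on both strands, and the shaded band is 50 bp on each side; the eEF1alpha1 summit of rank 2 has a copy of AGGTTA on each side, and eEF1alpha2 has no match to these words.

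CACGTG was within 50 bp of 0 of the 7 strongest promoter summits, where 2.79% of IDR promoter peaks had it, a share too low to set 7 genes apart. Within 200 bp 10.7% of IDR promoter peaks had it, as did 5.93% of pooled promoter peaks outside the IDR list. It was found in that window at 2 of the 11 pooled promoter summits of the members, 4 of which are outside the IDR list. These copies were 174.5 bp downstream of the eEF1alpha1 summit at the RA start and 130.5 bp upstream of the weak eEF1delta summit. The DRE, the site of the factor DREF, was 44.5 bp upstream of the eEF1gamma summit and 113.5 bp downstream of the eEF1delta summit. Of IDR promoter peaks, 5.04% had it within 50 bp and 12.5% within 200 bp. Of pooled promoter peaks outside the IDR list, as that of eEF1delta is, 8.11% had it within 200 bp. GGTCACACT, known as Motif 1 of fly core promoters, was within 200 bp of 0 member promoter summits. It was within that distance of 9.85% of IDR promoter peaks and of 5.69% of pooled promoter peaks outside the IDR list. GAGAG, the core site of GAGA factor, lay within 50 bp of 13.7% of IDR promoter peaks and of 16.6% of pooled promoter peaks outside the IDR list. Among the 11 pooled promoter summits of the members it lay within 50 bp of 1, at the RA start of eEF1alpha1. TATAAA occurred at that summit too, in 2 overlapping copies on opposite strands centred 42.5 and 44.5 bp downstream, and at 11.7% of IDR promoter peaks. Each word was searched on both strands, and none of the 6 words contains another. The share of G and C within 200 bp of the strongest summit ran from 36.7% at eEF1delta to 47.6% at eEF1beta.

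Genes of the translation machinery in flies often start at a TCT initiator, whose core CTTT begins at or next to the start. CTTT with its C within 2 bases of an annotated start, on the sense strand, was found at 0 of the 7 genes, at 3.28% of all genes and at 4.95% of genes with an IDR promoter summit. Within 10 bases, a window wider than the planned search, there was a match at starts of 5 of the 7. These were eEF1alpha1, eEF1alpha2, eEF1delta, eEF2 and eEF5. The shares in that window were 14.9% of all genes and 21.4% of genes with an IDR promoter summit. A match more than 2 bases from a start does not meet the definition above, and whether any of these starts uses a TCT initiator was not tested. A gene with several starts has several chances of a match, and the shares are not adjusted for that. The eEF2 copy began 4 bases after the RA start, as the 30 bases around that position show, with CTTT in capitals.
eEF2 RA start, chr2L:21682102-21682131, minus strand: gtcgctgcagcgcctcgctCTTTcctgtcg
eEF1delta start, chr2L:10232492-10232521, plus strand: cattccCTTTcaaacgtgttatcgtattgt
Here eEF2, with strong signal, has the word after its annotated start, and eEF1delta, with weak signal, has it 9 bases before. Annotated starts can differ from the true ones by a few bases, which was not tested.

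Other genes around elongation were taken from 4 lists, in which 23 of 29 names matched a gene. Of the 23, 8 had an IDR promoter summit and 20 a pooled one, beside the 11.2% and 56.7% of all genes given above. The cytosolic GTPases related to eEF1alpha or eEF2 had an IDR summit at 3 of 7. These were eIF2gamma, a subunit of the initiation factor that carries the first tRNA, with 888 at rank 97, the release factor GTPase eRF3 with 448 at rank 237, and the subunit-joining factor eIF5B with 115.5 at rank 1798. In replicate 4 eIF5B had rank 5815, outside the 1949 strongest. In this list HBS1 and eEFSec, the carrier of selenocysteine tRNA, had pooled signals of 66.7 and 36.9, below the threshold. CG33158 and CG4849 had no promoter summit in the pooled list.

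Termination and recycling genes had an IDR summit at 3 of 6. The ribosome recycling ATPase gene pix had 1101 at rank 70, eRF3 is counted above, and eRF1, which reads stop codons, had 271 at rank 438. The pix summit was shared with Srp68, that of eRF3 with SC35 and that of eRF1 with Rbbp5, whose starts lay within 500 bp. The 7 member promoter summits in the IDR list had no start of another protein-coding gene within 500 bp, while 31.1% of IDR promoter peaks had starts of at least 2 genes there. pelo, HBS1 and mRRF1 had pooled signals of 62.8, 66.7 and 58.1.

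Enzymes that modify eEF5 or eEF2 had an IDR summit at 2 of 7, and both summits were shared with other genes. nero, the hydroxylase that completes hypusine on eEF5, had 183 at rank 796 (shared with CG1910). Dph4, of the diphthamide pathway that modifies eEF2, had 322 at rank 351, with the summit 356 bp upstream and the starts of RpL13A and Spec2 within 500 bp. Dph1, Dph2, Dph3, Dph5 and Dhps ran from 84.3 for Dph1 to 30.5 for Dph5 and were outside the IDR list.

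Of the mitochondrial elongation factor genes, 1 of 5 had an IDR summit, waw with 126 at rank 1519, shared with bbx. In replicate 4 the waw summit had rank 4058, outside the 1949 strongest. mEFG1, the mitochondrial translocase, had a pooled signal of 74.3, mEFTs 55.7 and mEFTu1 34.2, and mEFTu2 had no pooled promoter summit. The cytosolic translocase eEF2, at 944, was thus in the IDR list, and its mitochondrial counterpart mEFG1 was not.

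By summed difference of log2 rank over the pooled, replicate 3 and replicate 4 lists, the promoter peaks most like that of eEF1alpha1 were Top1 (1.75) and inv (4.00). For eEF2 they were RpS23 (0.166) and CCT2 (0.201), and larp (1.12) was among those for eEF1beta. The pooled list contains both replicates, so the 3 ranks are not independent.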

How the data were processed

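ChIP-seq peaks for Bigmax-GFP were deposited by the authors as 4 lists on dm6. Per the file headers and notes, relaxed peaks were called for replicate 3, replicate 4 and both pooled, each against a control alignment not analysed here, and pooled calls were then thresholded by IDR. The sources used here do not give the peak caller, its settings or read counts, so depth is unknown. Columns used were the deposited signal per peak and, to check its range, the deposited −log10 q-value, which was 3.64 for the whole IDR list and so ranks nothing. Signal was compared only within a list, and lists by rank.

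Starts and gene models came from Ensembl release 115 (FlyBase 6.54), sequence and synonyms from RefSeq Release 6, the same assembly as dm6. Summits were assigned to every gene with a protein-coding start within 500 bp, and partners were summits within 250 bp. Coding sequences were translated and aligned globally with Biopython 1.88 (BLOSUM62). Python 3.11.15 and pandas 2.3.3 were used, and assignment was checked on simulated data. No test was run, since 1 group was measured and members and lists were chosen with earlier results of these data known. Genes named were all members, matched list genes, genes sharing a member summit, and the 2 peaks nearest in rank to eEF1alpha1, eEF1beta and eEF2; 1 that this rule takes is not reported here. Genes sharing a summit with a list gene, and those beside flanking peaks, were named after their values were seen.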

Additional observations from a re-analysis of the deposited data

How the results depend on the processing

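No paired analysis was possible because the design has 1 group and no comparison between groups. The count of members in the IDR list was 4 with only the outermost gene start, which drops eEF1alpha1, and 5 under the other alternatives, leaving out each replicate (5 and 5) included. The count of list genes was 8, and 6 to 9 without a replicate. The ratio of eEF1alpha1 to eEF1alpha2 was 1.57 with the outermost start only and 57.7 to 104 without a replicate. That of eEF1beta to eEF1delta was 67.4 with a 1000 bp window and 50.02 without replicate 3; without replicate 4 it has no value. Members with AGGTTA numbered 1 with a 250 bp window, where the weaker eEF2 summit stands in, 1 with the outermost start only, 1 within 25 bp and 4 within 100 bp. With the outermost start only, eEF1alpha1 had rank 3440, and with a 250 bp window eEF2 had rank 270. Depth is unknown, and the relaxed lists stop at 30000 peaks, which bears on the weak summits of eEF1alpha2 and eEF1delta.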

Other observations

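Some peaks beside the members lay close to the starts of neighbouring genes. The IDR summit 944 bp past the end of eEF5, with a pooled signal of 154 and rank 1081, lay 27 bp from the start of RpL12, a ribosomal protein gene. Its partners had rank 985 in replicate 3, with the summit 123 bp away, and rank 1318 in replicate 4, 6 bp away. Past the end of eEF1alpha2, a pooled summit of 83.5 lay 2 bp from the start of Tbca, which encodes a tubulin-folding cofactor. Another of 109.6 lay 7 bp from the start of CG1896, at rank 1992, close below the end of the IDR list. Its rank was 1294 in replicate 4 and 4716 in replicate 3. Both exceeded the promoter summit of eEF1alpha2 itself, at 53.0. Past the end of eEF2, a pooled summit of 105 at rank 2209 lay 94 bp from the start of CG2225.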
